A study of Mus musculus with 18 samples.

Results

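Transcripts of B cell receptor signalling and B cell identity were followed through 35 genes, taken by symbol from a table of 56876 genes measured in splenocytes. The set was defined by gene name with no cutoff on a measured value, and each name matched 1 row. The set and the groups of genes within it were, however, chosen with earlier results of these data known. The set holds 11 receptor and surface proteins, 12 kinases, adaptors, phospholipases and phosphatases, 9 transcription factors and 3 further genes. All 35 passed the filter on low values, at least 1 TPM in at least 3 libraries, which 16635 genes passed.

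The spleens came from female Balb/c mice, and T libraries stand for mice that carried an orthotopic 4T1 tumour, a mouse mammary carcinoma line that serves to model triple-negative disease. The design names a G-CSF antibody, a PD-1 antibody and anti-IgG, given at 10 mg/kg into the peritoneum on days 18, 21 and 24 after implantation, with spleens collected on day 29. T_GC, T_P and T_I are libraries of tumour-bearing mice under the codes GC, P and I, and N_GC, N_P and N_I are those of mice without a tumour under the same codes, with 3 libraries in each group. No label spells out the codes, the treatment tag gives anti-PD-1 for all T and WT for all N libraries, and the cell-type tag calls all 18 tumour-bearing, so groups follow the titles and keep their codes. No label ties a library to an animal beyond its title. The p-values therefore set each difference against the spread between libraries, pooled over the groups, part of which may be technical.

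The B cell receptor is a membrane immunoglobulin held by CD79A and CD79B, whose cytoplasmic tails are phosphorylated by LYN, BLK and SYK when antigen binds. SYK then phosphorylates the adaptor BLNK, on which BTK activates phospholipase C gamma 2, while CD22, CD72 and SIGLECG recruit the phosphatase encoded by Ptpn6 (SHP-1) and restrain the signal. PAX5 and EBF1 set up and keep the identity of B cells, which fill the follicles and marginal zone of the spleen. Several of these signalling proteins also serve other lineages: 12 of the 35 genes are known to be expressed in myeloid cells as well, 6 in T cells as well, and 18 are largely restricted to B-lineage cells.

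These genes were low in T_P and T_I spleens and nearer to the tumour-free level in T_GC spleens. Their summed level was 7738 ± 1947 TPM in T_GC, 3536 ± 469 in T_P and 3445 ± 604 in T_I, against 8889 ± 310.1 in N_GC, 8372 ± 526 in N_P and 7892 ± 532 in N_I (mean ± SD, n = 3 libraries in each group throughout). The 18 genes largely restricted to B-lineage cells summed to 4703 ± 1338 TPM in T_GC, 1275 ± 309.8 in T_P and 1201 ± 488 in T_I, against 5539 ± 208 in N_GC, 5259 ± 401 in N_P and 4841 ± 451 in N_I. The 12 genes shared with myeloid cells summed to 2637 ± 477 TPM in T_GC, 2154 ± 141 in T_P and 2137 ± 94.9 in T_I, against 2809 ± 107 in N_GC, 2651 ± 95.2 in N_P and 2576 ± 75.8 in N_I. In mixed splenocytes, fewer cells of a type, less RNA per cell and a larger share of RNA from other cells cannot be told apart.

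**Figure D1:**
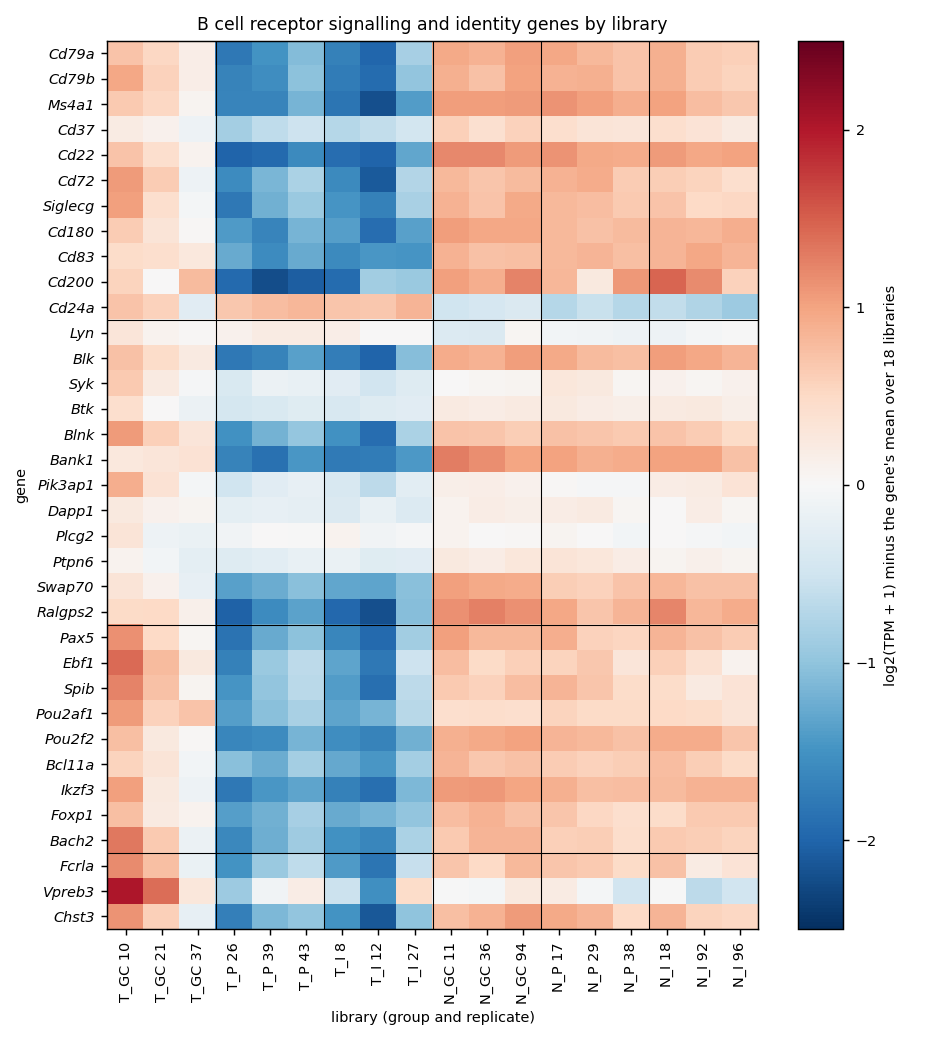
Level of each of the 35 genes (rows, grouped by role) in each of the 18 libraries (columns), as log2(TPM + 1) minus the mean of that gene over all libraries; red is above and blue below the mean. T_P and T_I columns are blue for most genes, T_GC libraries 10 and 21 are mostly red like the N columns, T_GC library 37 is paler, Cd24a is red in every T column but that of T_GC library 37, and Lyn and Plcg2 are close to their mean.

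Cd79a, a signalling subunit of the receptor, had 916, 802 and 632 TPM in T_GC libraries, 161, 199 and 265 in T_P libraries and 141, 315 and 173 in T_I libraries. In tumour-free spleens it had 1079.95, 1028 and 1133 TPM in N_GC, 1102, 988 and 918 in N_P and 1034, 873 and 841 in N_I. No T_P or T_I library reached any other library, and 2 of the N_I libraries lay within the range of T_GC. Cd79b, its partner, averaged 735 ± 200 TPM in T_GC, 184 ± 45.9 in T_P and 172 ± 64.2 in T_I, against 892 ± 80.7 in N_GC, 861 ± 59.5 in N_P and 790 ± 97.3 in N_I. Blnk, the central adaptor, had 172, 124 and 101 TPM in T_GC, 27.9, 35.5 and 41.0 in T_P and 21.0, 46.7 and 27.9 in T_I, against 125 to 134 in N_GC, 128 to 136 in N_P and 113 to 135 in N_I. Pax5, the master regulator of B cell identity, had 263, 168 and 123 TPM in T_GC, 32.3, 48.7 and 57.3 in T_P and 29.9, 64.8 and 37.7 in T_I, against 243, 208 and 209 in N_GC, 223, 177 and 173 in N_P and 213, 197 and 186 in N_I. For both genes the T_P and T_I libraries stood below all others, and the T_GC libraries straddled the tumour-free values.

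**Figure D2:**
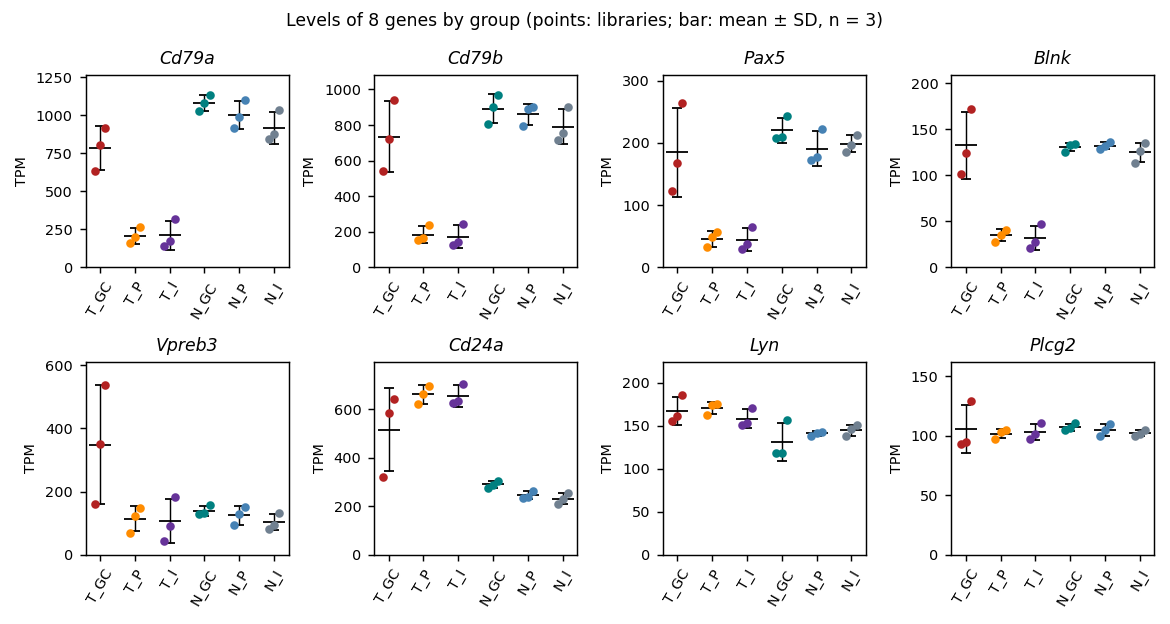
TPM of 8 genes by group; each point is 1 library and the bar is the mean ± SD of 3 libraries. Cd79a, Cd79b, Pax5 and Blnk are low in T_P and T_I, Vpreb3 is spread widely over T_GC, Cd24a is high in all T groups, Lyn is somewhat higher in T than in N groups, and Plcg2 is level.

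Not all members had this shape, and the promoters of 4 genes are shown because they stand for the different patterns: Cd79a and Blnk were low in T_I, Vpreb3 was not and was highest in T_GC, and Plcg2 was level. Sequences are the 250 bases before the start site in the RefSeq table of build GRCm38.p6, an earlier build than the GRCm39 named for the expression values, and 28 of the 35 genes matched an entry. Capitals mark the octamer that POU2F2 and POU2AF1 are known to bind (ATGCAAAT, or ATTTGCAT on the other strand) in Vpreb3 and Blnk, and an ETS core of the PU.1 and SPIB type (GAGGAA, or TTCCTC) in Cd79a. The windows are chr7:24897247-24897496 on the plus strand for Cd79a, chr19:40994222-40994471 on the minus strand for Blnk, chr10:75948050-75948299 on the plus strand for Vpreb3 and chr8:117498025-117498274 on the plus strand for Plcg2, in which none of the searched motifs was found.
Cd79a: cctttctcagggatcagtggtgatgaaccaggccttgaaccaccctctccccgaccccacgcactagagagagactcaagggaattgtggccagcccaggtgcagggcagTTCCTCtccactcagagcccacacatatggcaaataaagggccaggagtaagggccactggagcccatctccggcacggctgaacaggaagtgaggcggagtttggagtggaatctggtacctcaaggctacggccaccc
Blnk: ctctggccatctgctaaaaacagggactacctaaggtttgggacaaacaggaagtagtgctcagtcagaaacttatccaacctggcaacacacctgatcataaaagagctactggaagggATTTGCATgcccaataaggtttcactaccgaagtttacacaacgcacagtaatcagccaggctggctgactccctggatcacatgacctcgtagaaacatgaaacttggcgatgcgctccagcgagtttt
Vpreb3: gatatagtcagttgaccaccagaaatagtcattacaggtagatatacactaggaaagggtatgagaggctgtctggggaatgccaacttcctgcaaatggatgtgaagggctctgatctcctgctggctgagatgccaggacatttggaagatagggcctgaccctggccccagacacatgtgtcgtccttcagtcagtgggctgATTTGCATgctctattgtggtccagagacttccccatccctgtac
Plcg2: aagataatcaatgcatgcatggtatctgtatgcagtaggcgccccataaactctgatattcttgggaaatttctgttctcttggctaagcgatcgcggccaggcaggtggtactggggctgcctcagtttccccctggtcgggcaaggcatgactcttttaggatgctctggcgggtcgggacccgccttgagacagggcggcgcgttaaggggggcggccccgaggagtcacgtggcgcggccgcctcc

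Searched on both strands over windows of 250 bases before and 50 after the start site, the octamer was in the promoters of 2 of the 28 genes, its first base at position -45 from the start of Vpreb3 and at -130 from that of Blnk. It was in 1.74% of all 32851 promoters of the table and in 5.71% of the 35 promoters that it lists for the 28 genes. The EBF1 core CCCNNGGG, which reads the same on both strands, was in 5 genes (Bank1, Foxp1, Cd22, Spib and Chst3), or 14.3% of their promoters against 13.7% of all. The ETS core was in 15 genes, or 42.9% of their promoters against 28.3% of all. The 2 genes with an octamer, both shown above, differed in pattern (Blnk fell in T_I, Vpreb3 was not called), and a match is of letters alone. Like Plcg2, which was level, Pax5, Ralgps2, Bcl11a, Bach2 and Cd180 held none of the searched motifs, yet they fell strongly in T_I. Dapp1 and Ptpn6, which changed less, held none either. The ETS core was in Cd79a, which fell strongly, and also in Syk, Btk and Pik3ap1, which changed less.

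Under code I the tumour-bearing spleens had lower levels of most of these genes. Of the 35, 31 fell in T_I relative to N_I, 1 rose and 3 were not called (limma on log2(TPM + 1), two-sided, Benjamini-Hochberg adjusted p under 0.05). Over all genes tested, 52.4% fell and 17.4% rose, and the median change was -0.45, against -1.92 for the 35. Libraries did not overlap between T_I and N_I for 33 genes, as for 73.4% of all genes. TPM are shares of a fixed total, of which 18 neutrophil genes took 20.2% in T_I and 0.53% in N_I. Scaling by median of ratios in place of that total moved the median change of all genes by 0.42. Under it 32% of all genes rose and 30.2% fell, and 26 of the 35 genes fell and 4 rose.

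The median change was -2.25 over the 11 receptor and surface genes, 10 of which fell. Cd22, an inhibitory lectin, had 392, 322 and 254 TPM in T_GC and 59.0, 96.6 and 63.7 in T_I, against 555, 555 and 503 in N_GC and 499.7, 471 and 485 in N_I, and fell by 2.75 ± 0.172 (log2, SE; adjusted p = 3.18e-09) in T_I. The change of Ms4a1 (CD20) was -2.63, that of Cd180, a Toll-like receptor homologue, -2.41, that of Cd83 -2.40 and that of Cd200 -2.31. Cd79b changed by -2.25, Cd79a by -2.20, the inhibitory receptor genes Cd72 and Siglecg by -2.01 and -1.89, and the tetraspanin gene Cd37, shared with T and myeloid cells, by -0.92. Adjusted p for these 10 genes lay between 1.93e-11 (Cd83) and 3.45e-05 (Cd72). In T_I the levels of these genes were 15.1% (Cd22) to 52.8% (Cd37) of those in N_I.

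Cd24a, which encodes a glycoprotein of immature B cells, neutrophils and other cells, was the exception. It had 641, 583 and 322 TPM in T_GC, 621, 664 and 698 in T_P and 624, 705 and 633 in T_I, against 276, 289 and 305 in N_GC, 239, 264 and 236 in N_P and 254, 229 and 208 in N_I. Every tumour-bearing library lay above every tumour-free one. It rose by 1.50 ± 0.18 in T_I relative to N_I (log2, SE; adjusted p = 2.85e-06) and by 1.42 in T_P relative to N_P. Cd24a has near-identical copies elsewhere in the mouse genome, so its level is uncertain.

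Of the 12 signalling genes 10 fell, with a median change of -0.62. Those largely restricted to B cells fell strongly in T_I relative to N_I: Ralgps2 by 2.74, the Src-family kinase gene Blk by 2.56, the scaffold gene Bank1 by 2.56 and Blnk by 2.01 on the log2 scale. Swap70, which links phosphoinositides to actin and is shared with myeloid cells, fell by 1.99. Changes were smaller in 5 other signalling genes shared with myeloid cells: Pik3ap1 (BCAP) -0.69, Btk -0.55, Syk -0.46, Dapp1 -0.37 and Ptpn6 -0.34, all called, with adjusted p between 0.000222 (Btk) and 0.00472 (Syk). Scaled by median of ratios, Syk, Dapp1 and Ptpn6 turned to 0.07, 0.13 and 0.19, and Btk (-0.03) and Pik3ap1 (-0.17) were no longer called.

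Syk, the kinase that reads the phosphorylated tails, had 356, 264 and 222 TPM in T_GC and 162, 182 and 186 in T_I, against 228, 235 and 238 in N_GC and 245, 236 and 246 in N_I. Plcg2 had 129, 94.9 and 92.6 TPM in T_GC, 97.3 to 105 in T_P and 97.3, 101 and 110.3 in T_I, against 105 to 110.5 in N_GC, 99.3 to 109 in N_P and 105, 102 and 99.5 in N_I. Its T_I and N_I libraries overlapped, and the difference was 0.01 ± 0.0966 (log2, SE; adjusted p = 0.918). Lyn, which can both start and restrain the signal, averaged 168 ± 16.2 TPM in T_GC, 170.5 ± 7.0 in T_P and 158 ± 10.7 in T_I, against 131 ± 22.3 in N_GC, 141 ± 2.56 in N_P and 145 ± 6.31 in N_I. The difference between T_I and N_I was 0.13 and not called (adjusted p = 0.257), though each T_I library lay above each N_I library. Scaled by median of ratios, Lyn (0.65) and Plcg2 (0.53) were called higher in T_I.

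By known breadth of expression, the median change in T_I relative to N_I was -2.11 in the 18 B-restricted genes, 17 of which fell, -1.82 in the 6 genes shared with T cells, all of which fell, and -0.50 in the 12 shared with myeloid cells, of which 9 fell and 1 rose. By median of ratios the medians were -1.59, -1.33 and 0.02, and 4 of the 12 fell and 4 rose. Cd37 and Ptpn6 are in both of the shared groups. Neutrophil genes also differed between T_I and N_I, and all 18 rose. They summed to between 198797 and 206519 TPM in T_I, against 2212 to 7197 TPM in N_I. Their part in the levels of genes shared with myeloid cells was not tested.

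All 9 transcription factor genes fell in T_I relative to N_I. Ikzf3 (AIOLOS) changed by -2.41, Pou2f2 (OCT2) by -2.32, Pax5 by -2.22 and Bach2, which restrains plasma cell differentiation, by -1.92. Bcl11a changed by -1.82, Foxp1 by -1.73, Spib by -1.66, Ebf1 by -1.57 and Pou2af1 (OCA-B) by -1.48. Adjusted p ranged over these genes from 1.51e-08 (Pou2f2) to 0.000611 (Ebf1). Levels in T_I were 18.7% of N_I for Pou2f2 and 36.1% for Pou2af1, the ends of the range. Of the 3 remaining genes, Chst3, a chondroitin sulfotransferase gene, fell by 2.18 and Fcrla, an intracellular Fc receptor-like protein gene, by 1.70.

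**Figure D3:**
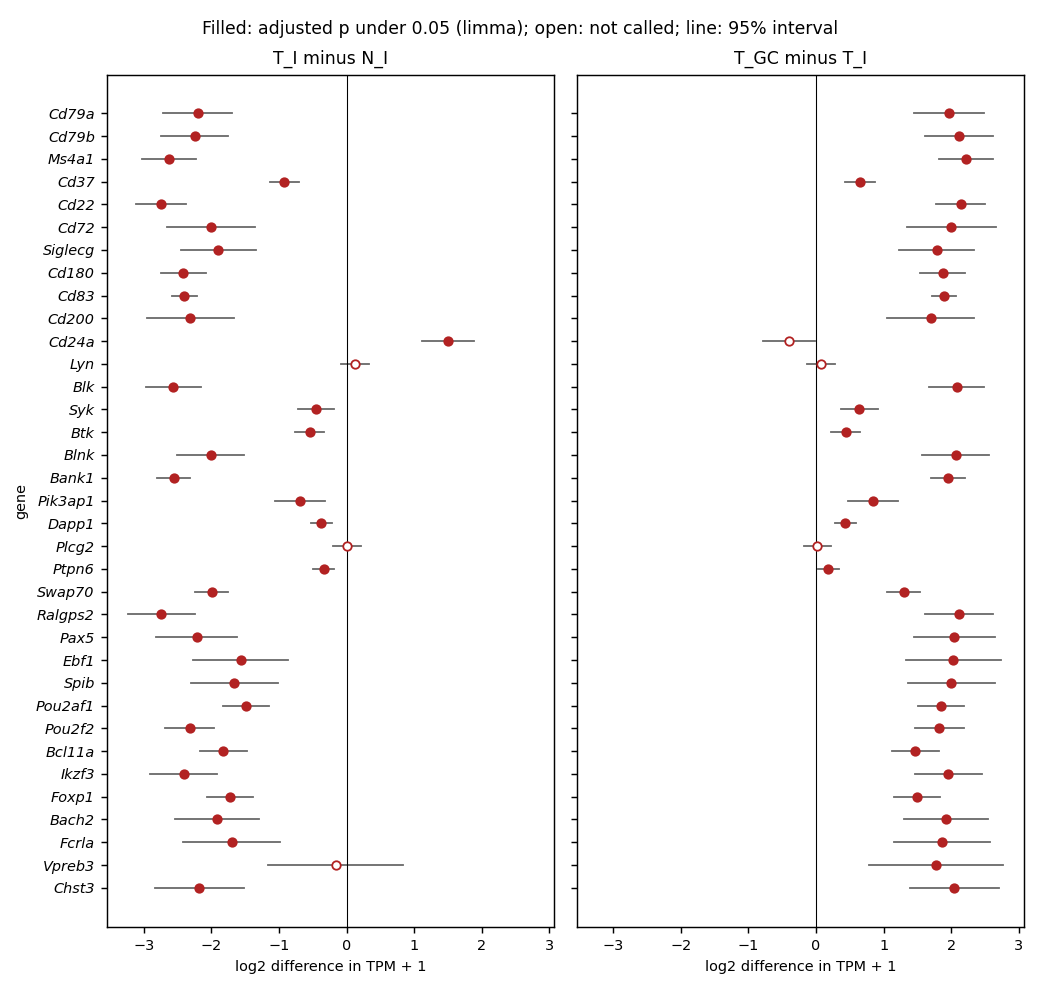
Log2 difference in TPM + 1 for each gene with its 95% interval, for T_I minus N_I (left) and T_GC minus T_I (right); filled points passed an adjusted p of 0.05. Most genes lie near -2 on the left and near 2 on the right, and Lyn, Plcg2 and, on the left, Vpreb3 cross 0. Both panels use the same T_I libraries, so their mirror image is partly built in.

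Vpreb3, which encodes a chaperone-like protein that binds immunoglobulin light chains in developing B cells, did not follow the other B-restricted genes. It had 538, 349 and 159 TPM in T_GC, 70.02, 124 and 149 in T_P and 44.5, 181 and 89.96 in T_I, against 131, 127 and 157 in N_GC, 151, 128 and 93.5 in N_P and 131, 82.8 and 93.96 in N_I. The T_GC libraries lay above all N libraries. The T_I libraries reached from below to above the range of the N libraries, and the T_P libraries from below that range to within it. The difference between T_I and N_I was -0.16 ± 0.467 (log2, SE; adjusted p = 0.773), with a 95% interval from -1.16 to 0.84. It turned positive by median of ratios (0.36), and when T_I library 12 (0.34) or N_I library 18 (0.03) was left out.

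Under code P most of these genes were likewise lower in tumour-bearing spleens. In T_P relative to N_P, 30 of the 35 fell, 2 rose (Cd24a and Lyn) and 3 were not called (Vpreb3, Plcg2 and Pik3ap1), while 50.3% of all genes fell and 18.9% rose. The median change of the 35 was -1.85, against -0.41 for all genes. Cd22 changed by -2.84 and Cd200 by -2.79, the 2 largest falls. Lyn averaged 170.5 TPM in T_P against 141 in N_P and rose by 0.27 (adjusted p = 0.0219). Its call was lost without T_P library 39 or 43 or N_P library 38, with adjusted p between 0.058 and 0.0619. Scaled by median of ratios, 26 genes fell and 3 rose, while 30.5% of all genes fell and 32.3% rose, and Syk (0.06) and Dapp1 (0.09) turned positive without being called.

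T_P and T_I had similar levels of these genes, within what the test could call. No gene was called between them by limma, 1 had an unadjusted p under 0.05, as had 6.07% of all genes, and 0.012% of all genes were called. That 1 was Cd200, an inhibitory ligand of myeloid cells, with 5.60, 4.46 and 5.05 TPM in T_P against 12.9, 12.3 and 5.63 in T_I. Each T_P library lay below each T_I library, only just so for T_I library 8, and the difference was -0.83 ± 0.30 (log2, SE; adjusted p = 0.754 by limma). The remaining 34 differences lay between -0.11 (Cd22) and 0.32 (Ms4a1).

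In tumour-bearing spleens, code GC went with higher levels of nearly all of the genes. Of the 35, 32 rose in T_GC relative to T_I, 0 fell and Lyn, Plcg2 and Cd24a were not called, while 48.7% of all genes rose and 12.7% fell. Of all genes, 65.1% had an unadjusted p under 0.05, as did 33 of the 35. The median difference was 1.86 in the 35 and 0.38 in all genes. Scaled by median of ratios, which lowers the median of all genes by 0.38, 27 rose and 4 fell, while 23.1% of all genes rose and 28.2% fell.

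Ms4a1 had 254, 231 and 169 TPM in T_GC against 34.3, 60.4 and 45.2 in T_I, and rose by 2.22 ± 0.189 (log2, SE; adjusted p = 2.38e-07), the largest rise of the 35. Among the other surface genes, Cd22 rose by 2.14, Cd79b by 2.11, Cd72 by 2.0, Cd79a by 1.97, Cd83 by 1.89, Cd180 by 1.87, Siglecg by 1.79, Cd200 by 1.70 and Cd37 by 0.65. Cd24a differed by -0.40 (adjusted p = 0.0645), and T_GC library 37 lay apart from the other 2 libraries of its group at 322 TPM. Scaled by median of ratios Cd24a was called lower in T_GC, at -0.88.

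Of the signalling genes, Ralgps2 rose by 2.11, Blk by 2.08, Blnk by 2.06, Bank1 by 1.95 and Swap70 by 1.30 in T_GC relative to T_I. Smaller rises were called for Pik3ap1 (0.85), Syk (0.64), Btk (0.44), Dapp1 (0.43) and Ptpn6 (0.18, adjusted p = 0.0443). The call of Ptpn6 was lost under 17 of 28 alternatives and its sign turned under 2 more, and without T_GC library 10 the difference was 0.098. Differences were 0.08 for Lyn and 0.02 for Plcg2, with adjusted p of 0.50 and 0.865. Scaled by median of ratios, Ptpn6 (-0.29), Lyn (-0.39) and Plcg2 (-0.45) were called lower, Btk (-0.03) and Dapp1 (-0.02) changed sign without a call, and Syk (0.17) and Cd37 (0.18) lost theirs.

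All 9 transcription factor genes rose in T_GC relative to T_I. The rises were 2.05 for Pax5, 2.03 for Ebf1, 2.0 for Spib, 1.95 for Ikzf3, 1.92 for Bach2, 1.84 for Pou2af1, 1.82 for Pou2f2, 1.49 for Foxp1 and 1.47 for Bcl11a, with adjusted p between 2.76e-07 (Pou2af1) and 9.19e-05 (Ebf1). Chst3 rose by 2.04, Fcrla by 1.86 and Vpreb3 by 1.77 (adjusted p = 0.00427), although the T_GC and T_I libraries of Vpreb3 overlapped. Against T_P, which shares the T_GC libraries with this comparison, T_GC was higher for 32 genes and lower for 0, with a median difference of 1.74, and 49.1% of all genes rose and 12.7% fell. The neutrophil genes summed to between 37621 and 60694 TPM in T_GC, against 198797 to 206519 in T_I, and 18 of 18 fell. Their part in these differences was not tested.

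T_GC spleens nonetheless differed from N_GC spleens in 15 of the 35 genes. In T_GC, 13 fell and 2 rose relative to N_GC, while 18.9% of all genes fell and 14.3% rose, and the median difference was -0.32 in the 35 and -0.09 in all genes. Swap70 had 111, 95.7 and 76.9 TPM in T_GC against 181, 173 and 170.2 in N_GC, and fell by 0.89 ± 0.115 (log2, SE; adjusted p = 3.1e-05), the largest fall called. Bank1 averaged 111 ± 4.25 TPM in T_GC against 199 ± 20.1 in N_GC and changed by -0.83. Cd22 and Ralgps2 changed by -0.76 and -0.81, Cd180 by -0.67, Ikzf3 by -0.66, Ms4a1 by -0.64, Pou2f2 by -0.60, Bcl11a by -0.48, Cd37 by -0.47, Foxp1 by -0.43, Cd83 by -0.40 and Ptpn6 by -0.30. The calls of Foxp1, Bcl11a and Ikzf3 were lost under 22, 9 and 9 of 28 alternatives, among them a fit with no filter, TPM without neutrophil genes and the omission of T_GC library 21 or 37 or of any N_GC library, and Ikzf3 was -0.41 without T_GC library 37. By median of ratios 12 of the 35 fell and 5 rose (Cd24a, Lyn, Vpreb3, Syk and Pou2af1), while 13.1% of all genes fell and 18% rose. Libraries did not overlap between T_GC and N_GC for 17 of the 35 genes, as for 41.5% of all genes.

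The genes that rose in T_GC relative to N_GC were Cd24a, by 0.77 ± 0.18 (adjusted p = 0.00432), and Lyn, by 0.36 (adjusted p = 0.0102), although N_GC library 94 had 157 TPM of Lyn and overlapped T_GC. The call of Lyn was lost without N_GC library 11 or 36, or when T_GC and N_GC alone were fitted, with adjusted p between 0.0511 and 0.117 by limma. Cd79a (-0.48, adjusted p = 0.139) and Cd79b (-0.31, adjusted p = 0.331) were not called, nor was Vpreb3, whose 3 T_GC libraries lay above the N_GC libraries (1.17 ± 0.467, adjusted p = 0.0685). These 3 genes are given here after their values were seen. T_GC library 37 decides part of the count: without it 7 genes fell and 5 rose. Without T_I library 27, which enters through the shared estimate of spread, 4 rose.

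The change in T_GC relative to N_GC was set directly against that in T_I relative to N_I. The difference between the 2 changes was positive and called for 30 of the 35 genes and negative for 1, Cd24a (-0.74, adjusted p = 0.0315), while 33.4% of all genes were called positive and 6.93% negative. It was largest for Blk (2.09 ± 0.27), Cd83 (2.0), Blnk (1.99), Cd22 (1.99) and Ms4a1 (1.98), and small for Dapp1 (0.37), Btk (0.43) and Cd37 (0.45). It was not called for Ptpn6 (0.04), Plcg2 (-0.05), Lyn (0.24) and Vpreb3 (1.33 ± 0.66, adjusted p = 0.125). By median of ratios 25 were called positive and 3 negative (Cd24a, Plcg2 and Ptpn6), while 14.1% of all genes were called positive and 19.2% negative. Btk, Cd37, Syk and Pik3ap1 were then no longer called, nor was Dapp1, which turned to -0.04.

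Among tumour-free spleens no difference by code was called for these genes, but the test was insensitive here. It shared 1 estimate of spread over all 18 libraries, and for these genes the tumour-bearing libraries were spread more widely. Their median SD of log2(TPM + 1) was 0.378 in T_I and 0.102 in N_I. limma called 0 of the 35 between N_GC and N_I, between N_GC and N_P and between N_P and N_I, where 2.75%, 1.17% and 0.571% of all genes were called. With an unadjusted p under 0.05 there were 0, 1 and 1 of the 35 in the same order, and 15.8%, 14.3% and 13.5% of all genes. The smallest p belonged to Ptpn6 in N_GC relative to N_I (0.14, adjusted p = 0.366), to Swap70 in N_GC relative to N_P (0.33, adjusted p = 0.191) and to Ptpn6 in N_P relative to N_I (0.17, adjusted p = 0.315). The difference between the T_P to N_P change and the T_I to N_I change was called for 0 genes by limma, with 0 at an unadjusted p under 0.05, while 0.018% of all genes were called and 6.89% had such a p. The smallest p there was that of Cd83 (0.23, adjusted p = 0.754). Libraries did not overlap between N_GC and N_I for 13 of the 35 genes, against 23.3% of all genes. The summed level of the 35 did not overlap either, at 8539 TPM or more in N_GC and 8481 TPM or less in N_I.

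To see whether the genes moved in proportion, each was expressed relative to the mean log2 level of Cd79a and Cd79b in its own library, which leaves 33 genes. In T_I relative to N_I, 15 of the 33 rose against the receptor pair and 3 fell, and 15 were not called, while 90% of all genes rose and 0.307% fell on this scale. Those that fell further than the pair were Cd22 by 0.52 (SE 0.181, adjusted p = 0.0108), Ralgps2 by 0.51 and Ms4a1 by 0.40. The call of Ms4a1 was lost under 10 of 21 alternatives, among them omission of any N_I library, and its sign turned under 1 more. Those of Cd22 and Ralgps2 were lost under 2 and 1 of 21. The sign turn of Ms4a1 and 1 of the losses of Cd22 came from using Ms4a1 and Cd22 as the pair. Each is then part of its own denominator, so their values (0.061 and -0.061) mirror each other by construction. These values cannot show how stable the 2 calls are. The largest relative rises were those of Cd24a (3.73), Lyn (2.35), Plcg2 (2.24), Vpreb3 (2.07), Ptpn6 (1.89), Dapp1 (1.85), Syk (1.77), Btk (1.68), Pik3ap1 (1.53) and Cd37 (1.30). Pou2af1 (0.74), Ebf1 (0.66), Spib (0.57), Fcrla (0.52) and Foxp1 (0.50) rose by less. In T_P relative to N_P, 17 rose and 1 fell, against 91.3% and 0.427% of all genes.

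In T_GC relative to N_GC only 4 of the 33 rose against the receptor pair and 0 fell, against 11.8% and 0.397% of all genes, by limma, with 11 at an unadjusted p under 0.05, as had 25.1% of all genes. The 4 were Vpreb3 (1.56 ± 0.276, adjusted p = 0.000455), Cd24a (1.16), Pou2af1 (0.76) and Pik3ap1 (0.66, adjusted p = 0.0488). Without T_I library 27 there were 8, and without T_GC library 37, N_GC library 11 or N_GC library 94 there were 2. The call of Pik3ap1 was lost under 16 of 21 alternatives, among them omission of any T_GC or N_GC library. That of Pou2af1 was lost under 3 of 21. In T_GC relative to T_I, 12 of the 33 fell against the pair and 0 rose, while 92% of all genes fell and 0.012% rose. In N_GC relative to N_I, 0 were called in either direction by limma, with 0 at an unadjusted p under 0.05, while of all genes 0.277% were called lower, 0.00601% called higher and 7.17% had such a p. With Ms4a1 and Cd22 in place of Cd79a and Cd79b, 24 of the same 33 genes rose and 0 fell in T_I relative to N_I. Of all genes 95.6% rose and 0.0301% fell. These 33 still leave out Cd79a and Cd79b and include Ms4a1 and Cd22, which are part of their own denominator.

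**Figure D4:**
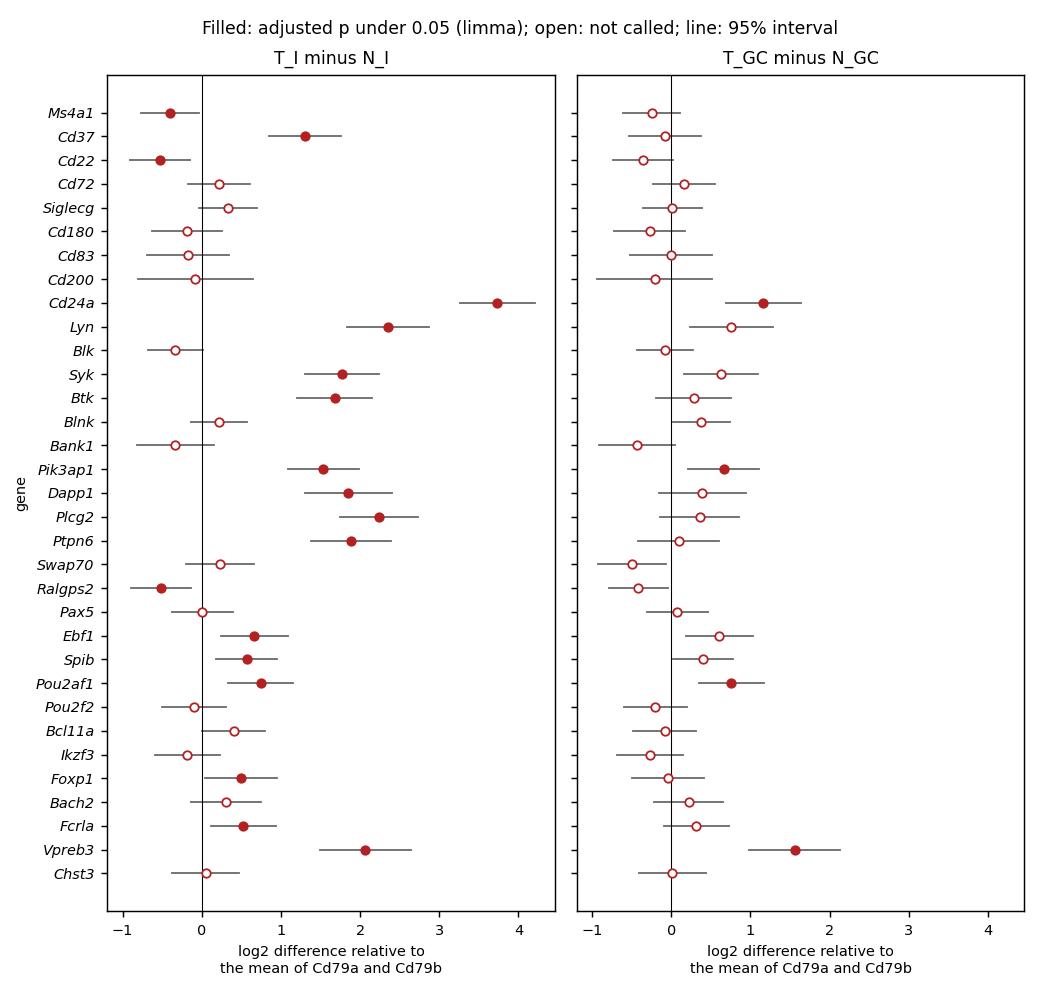
Log2 difference of each gene relative to the mean of Cd79a and Cd79b in the same library, with its 95% interval, for T_I minus N_I (left) and T_GC minus N_GC (right); filled points passed an adjusted p of 0.05. On the left Vpreb3 and 9 of the 12 genes shared with myeloid cells lie between 1 and 4, while Cd83, Cd180, Swap70 and most B-restricted genes lie nearer to 0, and on the right 4 genes are filled.

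For these genes the libraries of 1 group were spread more widely in tumour-bearing than in tumour-free mice. The median SD of log2(TPM + 1) was 0.342 in T_GC, 0.24 in T_P and 0.378 in T_I, against 0.0774 in N_GC, 0.0921 in N_P and 0.102 in N_I. Over all genes it was 0.203 in T_GC, 0.129 in T_P and 0.145 in T_I, against 0.13 in N_GC, 0.122 in N_P and 0.145 in N_I. The ratio of the highest to the lowest library had a median over the 35 genes of 1.60 in T_GC, 1.42 in T_P and 1.64 in T_I, against 1.10 in N_GC, 1.13 in N_P and 1.15 in N_I. The largest ratio was 4.08, that of Vpreb3 in T_I. The genes varied together: T_GC library 10 was the highest of its group for 32 of the 35 genes, as for 55.1% of all genes, and library 37 was the lowest for 32, as for 46.2% of all genes. In T_I, library 27 was highest for 28 genes and library 12 lowest for 27, against 34.8% and 36.7% of all genes. In T_P, library 43 was highest for 29 and library 26 lowest for 30, against 39.1% and 36.7%. Such an order was also seen in N_P, where library 17 was highest for 26 and library 38 lowest for 27, against 42.7% and 39.6%. In N_I, library 18 was highest for 23, against 27.3%. It was not clear in N_GC, where libraries 11, 36 and 94 were highest for 12, 8 and 15 genes, against 33.1%, 32.6% and 32.8%. Library 36 was lowest for 19 there, against 33.1%.

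Genes of the earliest B cell stages varied between the same libraries. Rag1, a subunit of the recombinase that assembles receptor genes, had 86.4, 38.9 and 7.27 TPM in T_GC libraries 10, 21 and 37, 6.42, 13.6 and 14.9 TPM in T_P and 2.42, 13.2 and 8.70 in T_I libraries 12, 27 and 8, against 0.59 TPM or less in every N library. Igll1, part of the surrogate light chain, had 147, 67.4 and 4.83 TPM in T_GC, 13.1, 20.7 and 30.8 in T_P and 2.05, 37.8 and 15.9 in T_I, against 0.85 TPM or less in every N library. Rag2, Dntt, Vpreb1 and Vpreb2, named like Igll1 after their values were seen, had the same order of libraries in T_GC, and Vpreb1 reached 135 TPM in T_GC library 10 against at most 3.31 in N_GC. Vpreb3 had this order too, and Ms4a1, a gene of mature B cells, spanned only 254 to 169 TPM over the 3 T_GC libraries.

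Of 13 genes of pro-B and pre-B cells, 8 rose and 2 fell in T_I relative to N_I, 9 rose and 2 fell in T_P relative to N_P, and 11 rose and 1 fell in T_GC relative to N_GC, with median changes of 1.64, 2.13 and 2.91. Of all genes 17.4%, 18.9% and 14.3% rose and 52.4%, 50.3% and 18.9% fell, in the same order. Rag1 rose by 2.42 ± 0.648 in T_I relative to N_I (adjusted p = 0.00385) and by 4.52 in T_GC relative to N_GC. Erg, Bst1 and Myb, which other progenitors and myeloid cells also express, rose by 3.60, 3.0 and 1.64 in T_I. Lef1 and Il7r, which T cells also express, fell by 2.77 and 1.77 in T_I.

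**Figure D5:**
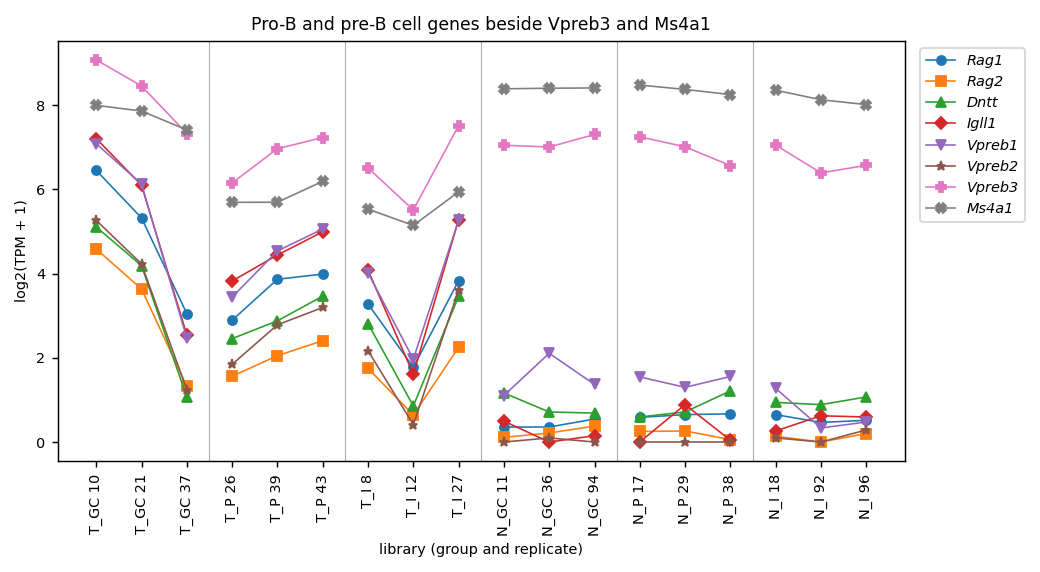
log2(TPM + 1) of 6 pro-B and pre-B cell genes, Vpreb3 and Ms4a1 in each of the 18 libraries; lines join the libraries of a group only as a guide. The 6 early genes are low in all N libraries, at most 3.31 TPM (Vpreb1 in N_GC), and reach higher levels in T libraries, with T_GC library 10 highest and library 37 lowest of their group, while Ms4a1 is low in T_P and T_I.

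The wider receptor pathway showed the same mixture. Among co-receptor genes, Cr2 (21.4 TPM in T_I against 249 in N_I, change -3.52) and Cd81 (-1.0) fell, and Ifitm1, which is also interferon-inducible in other cells, rose to 2032 TPM in T_I, against 48.9 in N_I. Of 29 other genes of the activating cascade, 22 fell and 6 rose in T_I relative to N_I, with a median of -0.77, or 16 and 8 with a median of -0.31 by median of ratios. Of all genes 52.4% fell and 17.4% rose, or 30.2% and 32% by median of ratios. Among the cascade genes that fell were the calcium channel gene Itpr3 (-2.33), the exchange factor gene Vav2 (-2.29), Lat2 (-2.02), Rel (-1.57) and Nfatc1 (-0.98). In T_GC relative to T_I, 22 of the 29 rose and 4 fell (Akt1, Hcls1, Rac2 and Vav3), or 14 and 8 by median of ratios. Of all genes 48.7% rose and 12.7% fell there, or 23.1% and 28.2% by median of ratios. In T_GC relative to N_GC, 13 of the 29 fell, among them Itpr3 (-0.80), and 3 rose (Akt1, Hcls1 and Vav3), against 18.9% and 14.3% of all genes. Akt1, Hcls1, Rac2 and Vav3 are named after their values were seen.

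Of 13 other inhibitors of the pathway, 7 fell and 4 rose in T_I relative to N_I, or 5 and 6 by median of ratios. Of all genes 52.4% fell and 17.4% rose in that comparison, or 30.2% and 32% by median of ratios. The share of inhibitors that fell was near that of all genes. Cd5 (-2.69), which T cells express strongly, the ubiquitin ligase gene Cblb (-1.98), the kinase gene Csk (-0.97) and Dok1 (-0.61) fell. Lilrb4a (3.05) and Pirb (1.52), receptors that myeloid cells also carry, rose, as did Dok3 (0.43) and Fcgr2b (0.29), which are named after their values were seen. Of 20 further genes of mature B cells, 20 fell in T_I relative to N_I, with a median of -2.48, among them Cxcr5 (-2.78), Tnfrsf13c (-2.51), Fcrl1 (-2.18), Ets1 (-1.97) and Irf8 (-1.81). In T_GC relative to N_GC 15 of the 20 fell, with a median of -0.65, while 18.9% of all genes fell. Of 11 plasma cell genes, 10 fell and 1 rose (Xbp1, 0.45) in T_I relative to N_I, and 1 fell (Tent5c, -0.80) in T_GC relative to N_GC, where Mzb1 averaged 149.7 TPM in T_GC and 149 in N_GC. The 16 T cell genes fell in T_I (16 of 16, median -2.75) and in T_GC relative to N_GC (16 of 16, median -1.27), and summed to 1144 ± 259 TPM in T_GC and 314 ± 7.89 in T_I, against 2755 ± 118 in N_GC and 2057 ± 275 in N_I. Other cell types' genes moved too. The 13 macrophage genes fell in T_I relative to N_I (13 of 13) and summed to 1794 ± 544 TPM in T_GC and 591 ± 44.3 in T_I, against 1432 ± 156 in N_GC and 2212 ± 620.4 in N_I. Of 10 dendritic cell genes 9 fell in T_I, and they summed to 154 ± 11.6 TPM in T_GC and 62.5 ± 3.43 in T_I, against 143 ± 5.06 in N_GC and 205 ± 40.7 in N_I. Of 11 erythroid genes 6 fell in T_I, near the 52.4% of all genes. The erythroid genes summed to 2401 ± 612 TPM in T_GC and 665 ± 228 in T_I, against 6558 ± 4222 in N_GC and 6847 ± 1918 in N_I. The part of these cell types in the results above was not tested.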

How the data were processed

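RNA-seq of 18 splenocyte libraries was deposited by the authors as TPM of 56876 genes with 2 decimals. Per the labels' protocols, RNA was extracted with an RNeasy kit and libraries were made with a SMARTER mRNA-Seq kit. The names fastp, RSEM and GRCm39 stand without versions in the submitters' processing notes. TPM keep no read depth, so the depth is unknown. Groups were read from the titles. limma 3.58.1 (R 4.3.3) fitted 6 group means to log2(TPM + 1) over 18 libraries with an intensity trend, leaving 12 residual degrees of freedom, for the 16635 genes that reached 1 TPM in 3 or more libraries. Tests were two-sided, with Benjamini-Hochberg adjustment over all genes tested in each comparison and calls at an adjusted p of 0.05. A second fit used values relative to the mean log2 level of Cd79a and Cd79b. Promoters were taken from RefSeq and searched on both strands.

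The members, roles, gene lists, comparisons and naming rule were chosen with earlier results of these data known. All 35 genes are named with statistics in T_I against N_I and T_GC against T_I, and genes called in other comparisons. Genes outside the set were named from lists by role, at most 6 per list by smallest p in T_I against N_I, unless stated otherwise. Some genes that this rule picks are not reported here. Settings varied were the pseudocount (0.1), the filter on low values (5 TPM, or none), scaling by median of ratios, removal of 18 neutrophil or 389 immunoglobulin genes before rescaling TPM, robust moderation, no trend, library weights per group, only the libraries compared, Ms4a1 and Cd22 as denominators, and omission of each library. The procedure was tested on simulated data for T_GC against T_I only, with equal spread in all groups. The spread of the 35 genes differed between groups, and that setting was not simulated. Python 3.11.15, pandas 2.3.3 and matplotlib 3.10.9 were also used.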

Additional observations from a re-analysis of the deposited data

Results flagged for a closer look

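For 31 of the 35 genes the change in T_GC relative to N_GC differed from that in T_I relative to N_I when the difference itself was tested in limma, while 33.4% of all genes were called positive and 6.93% negative. The difference on the log2 scale was 1.72 for Cd79a, 1.94 for Cd79b, 1.98 for Ms4a1, 1.99 for Cd22, 1.77 for Cd72, 1.52 for Siglecg, 1.75 for Cd180, 2.0 for Cd83, 1.71 for Cd200 and 0.45 for Cd37 among the receptor and surface genes. Cd24a alone was negative among the 31, at -0.74. Among the signalling genes it was 2.09 for Blk, 1.99 for Blnk, 1.93 for Ralgps2, 1.73 for Bank1, 1.10 for Swap70, 0.96 for Pik3ap1, 0.69 for Syk, 0.43 for Btk and 0.37 for Dapp1. Among the transcription factors it was 1.90 for Pax5, 1.85 for Pou2af1, 1.78 for Ebf1, 1.75 for Bach2, 1.74 for Ikzf3, 1.73 for Pou2f2, 1.67 for Spib, 1.34 for Bcl11a and 1.29 for Foxp1. Chst3 had 1.80 and Fcrla 1.63. By median of ratios 25 of the 35 were called positive and 3 negative, against 14.1% and 19.2% of all genes, and Btk, Cd37, Syk, Pik3ap1 and Dapp1 lost their calls. Neutrophil genes, whose sum averaged 51176 TPM in T_GC and 201626 TPM in T_I, against 782 in N_GC and 5338 in N_I, moved with these differences, and their part was not tested.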

How the results depend on the processing

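Depth is unknown and 3 libraries per group limit precision. No paired analysis was possible because the groups share no replicate numbers. Median-of-ratios scaling moved most. It gave 4 genes higher in T_I against N_I, 5 higher in T_GC against N_GC, 4 lower in T_GC against T_I, 4 lower in T_GC against T_P and 3 with a negative difference between the T_GC and T_I tumour changes. It reversed Syk (0.068), Vpreb3 (0.36), Dapp1 (0.13) and Ptpn6 (0.19) in T_I against N_I, and Syk (0.060), Vpreb3 (0.33) and Dapp1 (0.086) in T_P against N_P. It also reversed Btk (-0.031), Lyn (-0.39), Plcg2 (-0.45), Dapp1 (-0.016) and Ptpn6 (-0.29) in T_GC against T_I, Btk (-0.0047), Dapp1 (-0.091) and Ptpn6 (-0.29) in T_GC against T_P, and Dapp1 (-0.036) in the difference of changes.

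TPM without neutrophil genes gave 3 higher in T_I against N_I, 1 lower in T_GC against T_I and 2 lower in T_GC against T_P. It reversed Vpreb3 in T_I against N_I (0.15) and in T_P against N_P (0.15), Lyn (-0.17), Plcg2 (-0.23) and Ptpn6 (-0.068) in T_GC against T_I, and Ptpn6 (-0.052) in T_GC against T_P. Under it 17 calls were lost, among them those of Syk (-0.14), Pik3ap1 (-0.38), Dapp1 (-0.072) and Ptpn6 (-0.022) in T_I against N_I. Lyn (0.44) and Plcg2 (0.33) were called higher in that comparison, and Cd24a (-0.65) lower in T_GC against T_I. TPM without immunoglobulin genes reversed Plcg2 in T_I against N_I (-0.042). A fit of only the libraries compared gave 8 lower and 0 higher in T_GC against N_GC, and 0 negative differences of changes, as did the fit with no filter. A filter of 5 TPM and library weights each gave 1 lower in T_GC against T_P. Relative to Ms4a1 and Cd22, 24 genes rose and 0 fell in T_I against N_I, 27 rose and 0 fell in T_P against N_P and 15 rose in T_GC against N_GC. These counts leave out Cd79a and Cd79b and include Ms4a1 and Cd22, which are part of their own denominator. Ms4a1 in T_I against N_I was then 0.061, the mirror image of Cd22 by construction. The cause was not tested where the setting's own construction does not give it.

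With each library left out in turn, T_I against N_I gave 31 lower and 1 higher each time, and T_P against N_P 30 to 31 lower and 1 to 2 higher. T_GC against N_GC gave 7 to 16 lower and 1 to 5 higher, T_GC against T_I 31 to 32 higher and 0 to 1 lower, T_GC against T_P 30 to 32 higher and 0 to 1 lower, N_GC against N_I 0 to 1 higher, and the difference of changes 28 to 31 positive and 0 to 1 negative. Relative to Cd79a and Cd79b, T_I against N_I gave 14 to 18 higher and 1 to 4 lower, and T_GC against N_GC 2 to 8 higher and 0 to 2 lower. Vpreb3 lay between -0.66 and 0.34 in T_I against N_I, above 0 without T_I library 12 or N_I library 18, and between -0.38 and 0.16 in T_P against N_P, above 0 without T_P library 26. Plcg2 lay between -0.038 and 0.051 in T_I against N_I, below 0 without T_I library 8 or N_I library 96, and between -0.13 and 0.11 in T_GC against T_I, below 0 without T_I library 12 or T_GC library 10. Of the results that carry a test, 6193 alternative values kept their direction and side of the threshold, 168 lost a call, 13 gained one and 31 changed sign. Many of these values could not change direction. The difference itself stays the same when the omitted library is outside the comparison. It also stays the same when only the filter, trend, moderation, group weights or set of groups fitted is changed.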
